A study of Mus musculus with 192 samples.

Results

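Grid columns 4 and 8 of a mouse brain section were compared with their outer neighbours, columns 3 and 9, in rows C to E. The first side held the 6 positions C4, C8, D4, D8, E4 and E8, and the second the 6 positions C3, C9, D3, D9, E3 and E9. They were chosen by their place in the grid and gave 34 of the 192 arrays, 18 on the first side and 16 on the second. The dataset 2 array labelled D3 was left out of the second side, because it did not resemble the other arrays of that position. E3 of dataset 1 is not analysed here.

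Each voxel, a small cube of tissue, had been named by a row (A to G) and a column (1 to 11). Each array compared RNA of 1 voxel position with a common reference, RNA of whole mouse brain. All animals were C57BL/6 males of postnatal day 56, with no treatment or mutation named, and the labels call the voxel RNA pooled. There were 3 independently harvested datasets, with 11, 11 and 12 arrays in the comparison. Both sides therefore shared strain, sex, age and reference, and differed only in position. The labels give no anatomical directions, so no region name is attached to a column here.

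Oligodendrocytes wrap axons in myelin, and regions rich in fibre tracts hold much of their RNA. The striatum is packed with projection neurons that receive dopamine and is crossed by fibre bundles. The excitatory neurons of the cerebral cortex express other genes, and the choroid plexus, a secretory epithelium within the ventricles, makes very large amounts of transthyretin mRNA. A voxel is large against cells and can hold several of these tissues. In such bulk samples, fewer cells of a type and less RNA per cell cannot be told apart.

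Values are log2 ratios that the authors had centred gene by gene, so they compare positions with each other and give no level between genes. A higher value likely means more RNA in the voxel, although the labels do not state the direction of the ratio. Differences are the mean of columns 4 and 8 minus the mean of columns 3 and 9 within a dataset, given as mean ± SD over n = 3 datasets. Across the 34 arrays 0.460% to 4.09% of values were missing or at the floor of the table, with medians of 1.41% in columns 4 and 8 and 1.52% in columns 3 and 9. Pearson correlations between arrays over genes lay between -0.493 and 0.726, and the dye orientation was kept as labelled. Dataset 2 had the dyes swapped, so dye and dataset cannot be told apart. The left-out D3 array correlated with the mean of datasets 1 and 3 at 0.0271 for position D3 and at 0.506 for D5, over 300 genes chosen for reproducible maps between those datasets.

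Of 15610 genes tested, 1 passed an adjusted p of 0.05 (limma with Benjamini-Hochberg adjustment), which is 0.00641% of them. It was the clone vc0339, which has no gene symbol in the annotation. It was higher in columns 4 and 8 by 1.72 ± 0.28 (limma adjusted p = 0.0319). The second side lacked a row E array in dataset 1 and a row D array in dataset 2, and side means were not balanced over rows. For genes that vary between rows, column and row are thus not fully separated. The clone is such a gene, with a difference of 0.31 in row C and 3.78 in row E. No gene passed on common positions or on means of the neighbouring pairs described below. An unadjusted p under 0.05 was reached by 765 genes, 4.90% of those tested. The differences below are therefore described by their size, their spread and the number of neighbouring pairs that share a direction. A pair is 2 adjacent voxels of one row, side and dataset, such as C4 and C3, and there were 16 complete pairs.

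Genes of myelinating cells mostly had higher means in columns 4 and 8. Of the 44 listed oligodendrocyte and myelin genes 14 were measured, and 11 of these had higher means there, as did 49.3% of all genes tested. The difference was positive in 3 of 3 datasets for 10 of the 14, against 12.6% of all genes tested. This and the later lists were chosen with earlier results of these data known. Their shares beside those of all genes are thus a description, not an independent test. The median of the list was 0.52, and that of all genes was -0.00. None of the 14 passed the test across datasets. In a fit that took each array as its own unit, with dataset and row as blocks, 7 passed, against 0.179% of all genes in that direction. That fit treats voxels of 1 harvest as independent, so its p-values are too small for a statement about animals.

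Tspan2, a tetraspanin of oligodendrocytes, separated the sides most cleanly. In dataset 1 its 6 values in columns 4 and 8 ran from 1.07 through a median of 1.45 to 1.56, against 0.37 to 1.37 in columns 3 and 9. In dataset 2 they ran from 0.42 to 1.06 against -0.01 to 0.35, and in dataset 3 from 0.56 to 1.41 against -0.30 to 0.43. The sides did not overlap in datasets 2 and 3, and in dataset 1 a single array, D9, reached into the range of the higher side. Non-overlap of this kind in at least 2 datasets was found for 0.0128% of genes. The difference was 0.69 ± 0.11, a 1.61-fold higher ratio, and all 16 pairs had the same direction, which was found for 0.0446% of genes. The adjusted p was 0.581 across datasets and 0.000466 in the fit on single arrays (both limma). Its difference was nearly equal in the rows of the grid, at 0.66 ± 0.13 in row C, 0.69 ± 0.29 in row D and 0.72 ± 0.10 in row E.

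**Figure D1:**
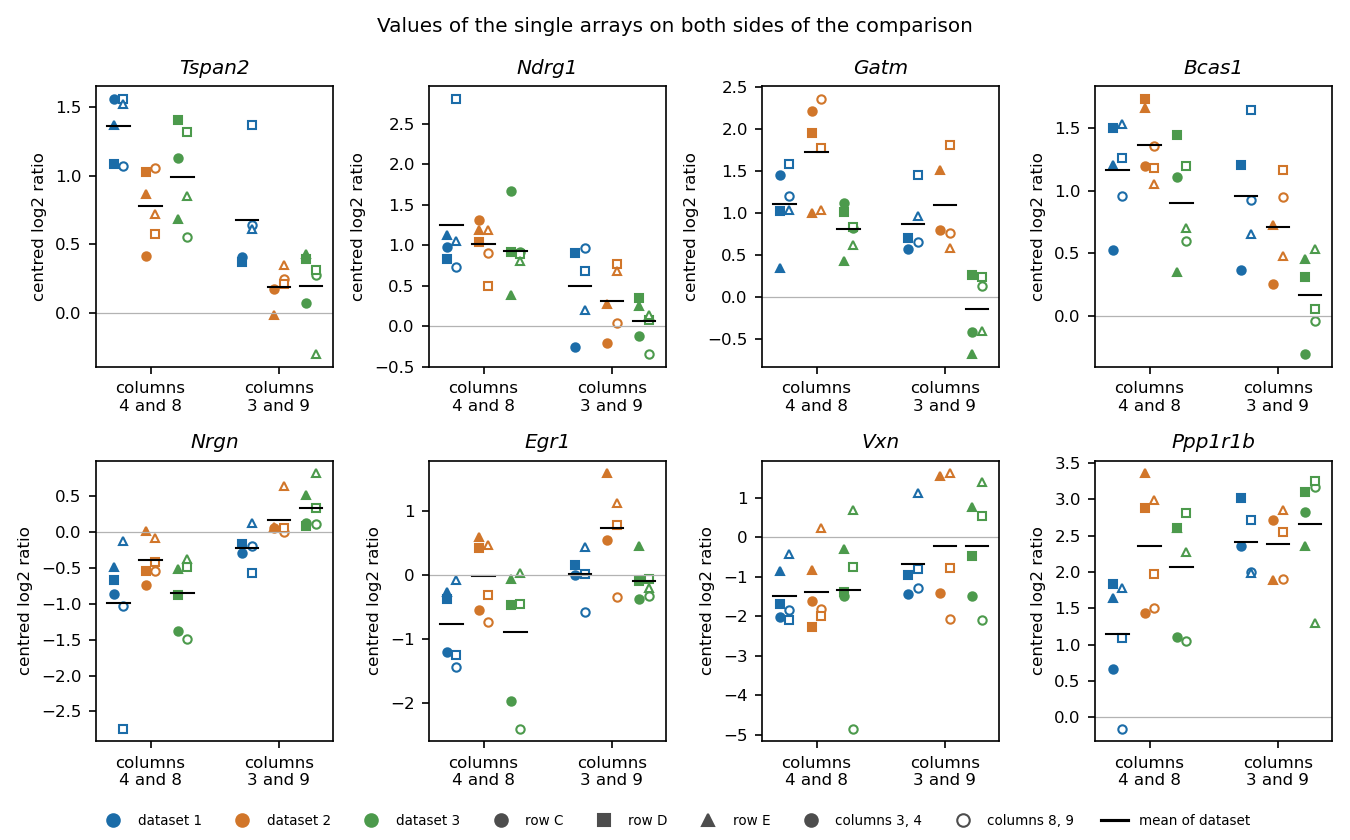
Centred log2 ratios of 8 genes on each of the 34 arrays, with columns 4 and 8 on the left and columns 3 and 9 on the right of each panel. Colours mark the 3 datasets, shapes the rows, filled points columns 3 and 4, open points columns 8 and 9, and black bars the mean of a dataset. Tspan2 sits higher on the left, where its dataset 2 values are 0.42 to 1.06 against -0.01 to 0.35, and Nrgn sits lower there in every dataset.

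Ndrg1, a gene that oligodendrocytes express and that myelin of peripheral nerves depends on, had the largest difference on the list. Its values ran from 0.38 through a median of 0.95 to 2.81 in columns 4 and 8, and from -0.34 through 0.23 to 0.97 in columns 3 and 9. The sides overlapped over all arrays but not in dataset 3. Non-overlap in at least 1 dataset in this direction was found for 0.705% of genes. The 3 dataset differences were 0.75, 0.71 and 0.87, with 13 of 16 pairs higher in columns 4 and 8 (limma adjusted p = 0.390). The highest single value was that of D8 in dataset 1.

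Gatm makes the precursor of creatine and is abundant in oligodendrocytes. In dataset 3 its 6 values in columns 4 and 8 were 0.43 to 1.12, all above the 6 values of columns 3 and 9, which were -0.68 to 0.26. Such non-overlap in at least 1 dataset was found for 0.705% of genes. In dataset 1 the sides overlapped widely, at 0.35 to 1.58 against 0.57 to 1.46. The differences were 0.24, 0.63 and 0.95 in the 3 datasets, a mean of 0.61 ± 0.36, and 14 of 16 pairs were higher in columns 4 and 8 (limma adjusted p = 0.998). At least 14 of 16 pairs in this direction were found for 0.787% of genes. The size of the Gatm difference thus depended on the dataset more than that of Tspan2 or Ndrg1.

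Bcas1, which marks oligodendrocytes that are forming myelin, behaved similarly. Its values were 0.35 to 1.73 with a median of 1.20 in columns 4 and 8, and -0.31 to 1.64 with a median of 0.50 in columns 3 and 9. The difference was 0.53 ± 0.29, from 0.20 in dataset 1 to 0.74 in dataset 3, with 14 of 16 pairs higher (limma adjusted p = 0.998 across datasets and 0.0362 on single arrays). Cryab, a small heat shock protein that is abundant in oligodendrocytes, differed by 0.54 ± 0.29 with 12 of 16 pairs higher. It did not pass in either fit (limma adjusted p = 0.998 and 0.162).

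Other members of the list had differences of like size. Septin4, a filament protein of myelin, differed by 0.57 ± 0.11 and was higher in 15 of 16 pairs. At least 15 of 16 pairs in this direction were found for 0.245% of genes. Cd9, a further tetraspanin, differed by 0.55 ± 0.23, and its sides did not overlap in datasets 2 and 3, as for 0.0128% of genes. Qdpr, which recycles a cofactor of hydroxylases, differed by 0.52 ± 0.25 with 15 of 16 pairs higher. Gsn and Scd2 differed by 0.46 ± 0.52 and 0.42 ± 0.38.

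Some genes of the same cells did not share this direction. Mbp, which encodes myelin basic protein, had a difference of -0.01 ± 0.15, with 6 of 14 pairs higher in columns 4 and 8. Car2, carbonic anhydrase, differed by -0.03 ± 0.36 and Edil3 by -0.15 ± 0.12. A separate list was drawn up for oligodendrocyte precursors, from which oligodendrocytes arise. Its 6 measured genes ranged from -0.11 for Enpp6 and Vcan to 0.13 for the growth factor receptor Pdgfra, with a median of 0.00. None of them kept 1 direction in all 3 datasets.

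Across the whole width of the grid, the means over rows C to E of Bcas1, Gatm, Cryab, Tspan2 and Ndrg1 were highest in columns 4 and 8. These means and the contrasts with columns 2 and 10 or 5 and 7 leave out 6 row D arrays of dataset 2, D1 to D3 and D5 to D7, whose place in the row is in doubt. Averaged over rows C to E, Bcas1 was -1.15 ± 0.77 in column 1, 0.48 ± 0.32 in column 3, 1.19 ± 0.30 in column 4 and 0.55 ± 0.45 in column 6. At the other end of the grid it was 1.09 ± 0.23 in column 8, 0.71 ± 0.47 in column 9 and -1.17 ± 0.87 in column 11. Gatm had its highest means in the same columns, 1.17 ± 0.48 and 1.25 ± 0.48, and so did Cryab, with 1.18 ± 0.21 and 1.12 ± 0.29. In row E alone, the highest mean of columns 2 to 10 lay further inward for Bcas1, Gatm, Cryab, Tspan2 and Ndrg1 alike. Bcas1 was 1.47 ± 0.37 at E5, against 1.07 ± 0.67 at E4 and 1.10 ± 0.42 at E8. Bcas1, Gatm, Cryab and Tspan2 were higher in columns 4 and 8 than in the mean of the neighbours on both sides. The differences were 0.49 ± 0.11, 0.54 ± 0.14, 0.56 ± 0.25 and 0.55 ± 0.18, positive in 3 of 3 datasets each, as for 11.2% of genes. This was not particular to genes of myelinating cells. Ppp1r1b was higher by 0.80 ± 0.44 in this contrast, also in 3 of 3 datasets. Its columns 5 and 7 differed from columns 4 and 8 by -2.22 ± 0.54. No gene passed the test of that contrast (limma, 856 genes or 5.48% at an unadjusted p under 0.05), and the compared columns share arrays with the main comparison. The same test for columns 3 and 9 against both of their neighbours had no gene past the threshold either, with 600 genes or 3.84% at an unadjusted p under 0.05 (limma).

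**Figure D2:**
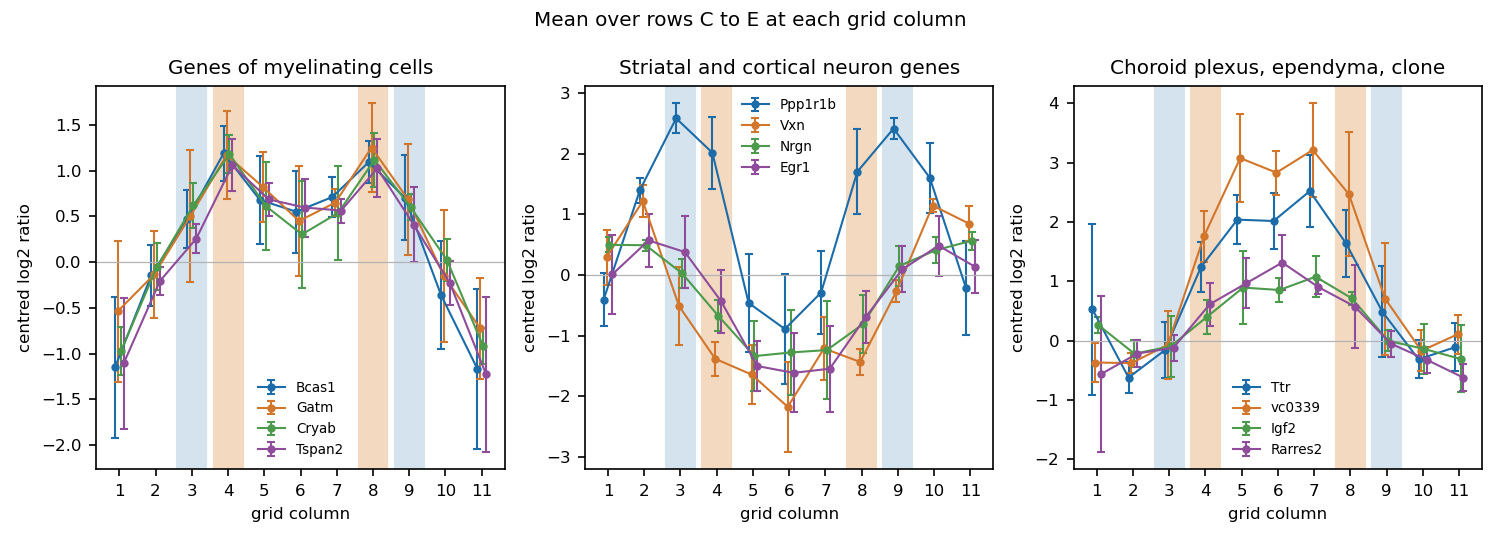
Mean centred log2 ratio over rows C to E at grid columns 1 to 11, with bars of 1 SD over datasets; orange bands mark columns 4 and 8 and blue bands columns 3 and 9. Genes of myelinating cells peak in the orange columns (Bcas1 1.19 in column 4), Ppp1r1b peaks in the blue columns (2.58 in column 3), and Ttr and the clone vc0339 are high from column 4 to column 8.

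The striatal projection neuron genes lay in the opposite direction, with modest sizes. Of 40 listed genes 14 were measured, all 14 had lower means in columns 4 and 8, as did 50.7% of all genes tested, and 12 were lower in 3 of 3 datasets, against 10.9% of all genes tested. The median was -0.28. None passed across datasets, and 1 passed in the fit on single arrays, Arpp19, a phosphatase inhibitor that many tissues express, at -0.45 ± 0.17. In that fit 0.0512% of all genes passed in this direction.

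Ppp1r1b encodes DARPP-32, through which these neurons relay dopamine signals. Its values ran from -0.16 through a median of 1.80 to 3.36 in columns 4 and 8 and from 1.29 through 2.63 to 3.25 in columns 3 and 9. Both sides were thus high, with means of 1.86 ± 0.64 and 2.49 ± 0.15, and the spread was wider in columns 4 and 8. The sides did not overlap in dataset 1, where they were -0.16 to 1.83 and 1.99 to 3.01, and overlapped in datasets 2 and 3. Non-overlap in at least 1 dataset in this direction was found for 0.512% of genes. The differences were -1.27, -0.02 and -0.59, a mean of -0.63 ± 0.63 (limma adjusted p = 0.998), and 12 of 16 pairs were lower in columns 4 and 8.

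Between rows of the grid this difference varied more than that of the other 3 markers. In row C, Ppp1r1b was 1.07 ± 0.39 at C4 and 0.80 ± 0.86 at C8 against 2.63 ± 0.25 at C3 and 2.36 ± 0.70 at C9, a difference of -1.56 ± 0.62 with the same sign in 3 of 3 datasets. In row D the difference was -0.66 ± 0.67. In row E it was 0.38 ± 0.58, with 2.53 ± 0.86 at E4 and 2.35 ± 0.61 at E8. The difference in row C minus that in row E was -1.94 ± 0.51 and negative in 3 of 3 datasets, as for 10.3% of genes, and it did not pass the test across genes (limma adjusted p = 1.00). Inward of columns 4 and 8 its means were -0.46 ± 0.80 in column 5 and -0.29 ± 0.68 in column 7.

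Other genes of the striatal list were lower by less. Syndig1l differed by -0.46 ± 0.42, the small G protein Rasd2 by -0.42 ± 0.40 and Rasgrp2, an exchange factor for small G proteins, by -0.41 ± 0.16. The transcription factors Bcl11b, Meis2 and Foxp1 differed by -0.24 ± 0.13, -0.24 ± 0.20 and -0.18 ± 0.18. The list's median followed Ppp1r1b through the rows, with -0.59 in row C, -0.37 in row D and 0.09 in row E. The oligodendrocyte list instead had positive medians in all 3 rows, 0.68, 0.34 and 0.41.

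Genes of cortical excitatory neurons mostly had lower means in columns 4 and 8. Of 32 listed genes 10 were measured, and 9 of these had lower means, as did 50.7% of all genes. Lower in 3 of 3 datasets were 7, against 10.9% of all genes, and the median was -0.29. None passed across datasets and 2, Vxn and Nrgn, passed in the fit on single arrays, against 0.0512% of all genes in that direction. The exception in direction was Foxp2, a transcription factor of deep cortical layers that the striatum and thalamus also express, at 0.23 ± 0.26. Not every list of neuronal genes was lower. Of 7 measured pan-neuronal genes 5 had higher means, as did 49.3% of all genes. Their median was 0.02, with 0.41 in row C and -0.53 in row E. The inhibitory interneuron and hippocampus lists had 3 of 4 and 5 of 8 genes with higher means, and medians of 0.05 and 0.01.

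Vxn, a gene of cortical neurons, had the largest negative difference of all genes, -1.03 ± 0.19. The dataset values were -0.81, -1.16 and -1.12, which is a 2.04-fold lower ratio on average (limma adjusted p = 0.154). Its values ran from -4.85 through a median of -1.54 to 0.68 in columns 4 and 8 and from -2.11 through -0.79 to 1.61 in columns 3 and 9, so the sides overlapped, and 14 of 16 pairs were lower in columns 4 and 8. The difference was -0.63 ± 0.70 in row C and -1.51 ± 0.54 in row E, where E3 and E9 were at 1.16 ± 0.56 and 1.37 ± 0.25. Columns 3 and 9 differed in turn from columns 2 and 10 by -1.56 ± 0.11 (limma adjusted p = 0.0763), and columns 5 and 7 from columns 4 and 8 by -0.01 ± 0.46. No gene passed either of these contrasts (limma), and 891 genes or 5.71% and 1098 genes or 7.03% had an unadjusted p under 0.05. They share arrays with the main comparison.

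Nrgn encodes neurogranin, a calmodulin-binding protein of the dendritic spines of cortical, hippocampal and striatal neurons. In dataset 3 its values were -1.48 to -0.37 in columns 4 and 8 and 0.08 to 0.82 in columns 3 and 9, with no overlap, whereas the sides overlapped in datasets 1 and 2. Non-overlap in at least 1 dataset in this direction was found for 0.512% of genes. All 16 pairs were lower in columns 4 and 8, which was found for 0.0223% of genes. The difference was -0.83 ± 0.32 (limma adjusted p = 0.586 across datasets and 0.00208 on single arrays), with -0.98 ± 0.50 in row C, -0.92 ± 0.40 in row D and -0.65 ± 0.41 in row E. The lowest array, D8 of dataset 1 at -2.74, was also the highest for Ndrg1 and the lowest for Rcor3, at -2.81.

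Rcor3, a partner in a chromatin-modifying corepressor complex, was likewise lower in columns 4 and 8 in all 16 pairs, by -0.72 ± 0.26 (limma adjusted p = 0.610). The remaining gene with 16 of 16 pairs lower, B230343A10Rik, differed by -0.43 ± 0.07 and is named here after its values were seen. Chn1, Tle4 and Dkk3 of the cortical list differed by -0.42 ± 0.22, -0.42 ± 0.30 and -0.33 ± 0.13, each with 3 of 16 pairs higher.

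Egr1, an immediate early transcription factor that neurons induce when active, had the smallest spread over datasets of the named genes with lower values. The differences were -0.78, -0.76 and -0.78 in the 3 datasets, a mean of -0.77 ± 0.01. Its values ran from -2.40 through a median of -0.41 to 0.59 in columns 4 and 8 and from -0.58 through 0.01 to 1.58 in columns 3 and 9. The sides overlapped within every dataset, and 15 of 16 pairs were lower in columns 4 and 8 (limma adjusted p = 0.390 across datasets and 0.00119 on single arrays). At least 15 of 16 pairs in this direction were found for 0.0446% of genes. Of the 14 measured immediate early genes, Egr1 included, 9 had lower means and 7 were lower in 3 of 3 datasets, against 50.7% and 10.9% of all genes. Their median was -0.17, and Fos and Jun differed by 0.02 ± 0.25 and 0.00 ± 0.10.

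Genes of calcium signalling included several of these. Of 23 measured genes 18 had lower means in columns 4 and 8, as did 50.7% of all genes. Lower in 3 of 3 datasets were 9, against 10.9% of all genes, and the median was -0.14. Besides Nrgn, Ppp3ca, the catalytic subunit of calcineurin, differed by -0.58 ± 0.29 and Calm2, a calmodulin gene, by -0.42 ± 0.16. Like Ppp1r1b, Ppp3ca changed sign between rows, from -1.21 ± 0.75 in row C to 0.12 ± 0.20 in row E. Of 36 measured genes of dopamine, cAMP and G protein signalling 25 had lower means, against 50.7% of all genes, with a median of -0.06. In 3 of 3 datasets 9 were lower and 6 higher, against 10.9% and 12.6% of all genes. Pde2a, a cyclic nucleotide phosphodiesterase, was among the lower genes at -0.60 ± 0.21. The postsynaptic scaffold protein gene Baiap2 differed by -0.61 ± 0.16.

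**Figure D3:**
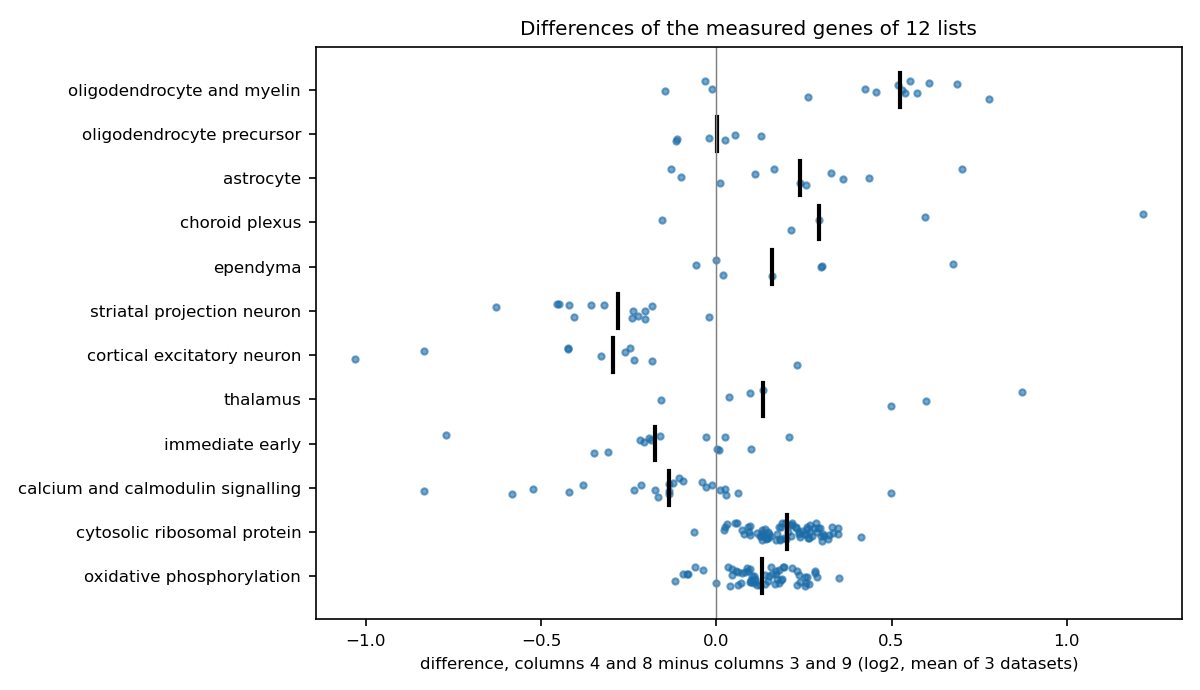
Differences (log2, mean of 3 datasets) of the measured genes of 12 lists, 1 point a gene, with the list median as a black bar; vertical scatter within a list has no meaning. The oligodendrocyte list has a median of 0.52, the striatal and cortical lists have medians of -0.28 and -0.29, and the precursor list lies around 0.

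Genes of the choroid plexus and the ventricle lining had mostly higher means in columns 4 and 8, with the largest differences in row E. Of 15 choroid plexus genes 5 were measured and 4 had positive differences in 3 of 3 datasets, against 12.6% of all genes, with a median of 0.29. Of 14 ependyma genes 7 were measured and 5 had higher means, as did 49.3% of all genes. In 3 of 3 datasets 4 of these 7 were higher and 1 was lower. The median of the ependyma list was 0.16, with -0.10 in row C and 0.37 in row E. Ttr, which encodes transthyretin, differed by 1.25, 1.04 and 1.36 in the 3 datasets, a mean of 1.22 ± 0.16 or 2.32-fold, with 14 of 16 pairs higher (limma adjusted p = 0.0783). Its 2 rows of the table differed in size, at 0.45 and 1.98, and the second passed when each row was tested on its own (limma adjusted p = 0.0297).

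In row E, Ttr was 3.38 ± 0.70 at E4 and 3.89 ± 0.96 at E8, against -0.41 ± 0.04 (n = 2) at E3 and 1.31 ± 1.20 at E9. The lowest value at E4 and E8 was 2.84 and the highest at E3 and E9 was 2.20. The share of genes with such a gap in row E was not counted. Over rows C to E the sides overlapped within every dataset. In row C the 4 positions lay between -0.32 ± 0.33 and -0.06 ± 0.54. The difference was 0.07 ± 0.25 in row C, 0.53 ± 0.44 in row D and 2.82 ± 0.35 in row E, where dataset 1 had only E9 on the second side.

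The clone vc0339 followed the same course. It read 0.31 ± 0.33 higher in columns 4 and 8 in row C, 0.62 ± 0.31 in row D and 3.78 ± 0.52 in row E. Row C minus row E was -3.47 ± 0.24 and passed the test (limma adjusted p = 0.0221), 1 of the 15346 genes tested for this contrast, or 0.00652% of them, with 544 or 3.54% at an unadjusted p under 0.05. This call was lost without dataset 2 (-3.46, limma adjusted p = 0.999), without dataset 3 (-3.36, limma adjusted p = 0.391), with floor values kept (limma adjusted p = 0.122) and after quantile normalization (limma adjusted p = 0.0548). Ttr had a row contrast of -2.74 ± 0.36, which did not pass (limma adjusted p = 0.123). Over the 34 arrays the clone and Ttr correlated at a Pearson r of 0.961, a description over arrays that share datasets and the 12 positions. The call of vc0339 in the main comparison held neither without dataset 2 (1.58, limma adjusted p = 0.139) nor with the left-out D3 array kept (1.50, limma adjusted p = 0.0733).

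Smaller differences of the same row pattern were measured for genes of the choroid plexus, meninges or ependyma. Igf2, a growth factor that the choroid plexus and meninges secrete, differed by 0.59 ± 0.15, with 0.10 ± 0.54 in row C and 1.39 ± 0.52 in row E. Rarres2, the chemerin gene, had the largest difference of the ependyma list, 0.68 ± 0.31, with 0.14 ± 0.34 and 1.45 ± 0.40. Ecrg4, which choroid plexus epithelium expresses strongly, differed by 0.64 ± 0.23, with 0.03 ± 0.33 and 1.55 ± 0.43. None passed the test (limma), and Folr1, a folate receptor of choroid plexus, differed by -0.15 ± 0.44.

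**Figure D4:**
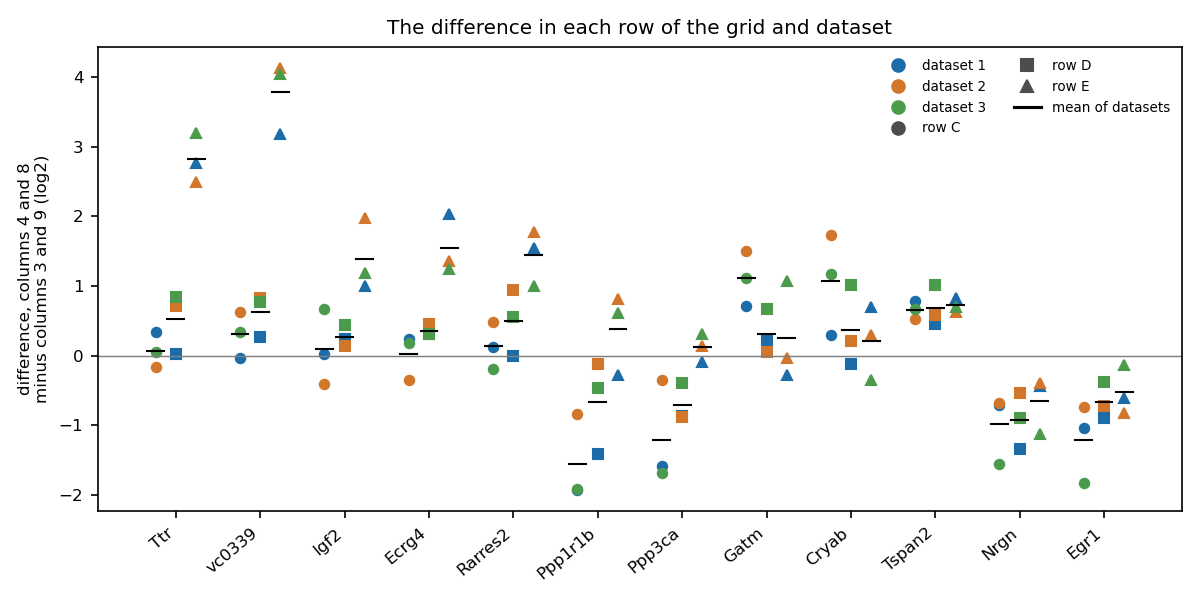
Difference of columns 4 and 8 minus columns 3 and 9 (log2) in rows C, D and E for 12 genes, with 1 point per dataset and black bars for the mean of the datasets. Ttr and vc0339 are near 0 in row C and at 2.82 and 3.78 in row E, Ppp1r1b goes from -1.56 to 0.38, and Tspan2 stays between 0.66 and 0.72.

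Of 11 measured astrocyte genes 9 had higher means in columns 4 and 8, as did 49.3% of all genes. Higher in 3 of 3 datasets were 6, against 12.6% of all genes, and the median was 0.24. Dbi, an acyl-CoA-binding protein of astrocytes and other glia, differed by 0.68, 0.71 and 0.71 (mean 0.70 ± 0.02, limma adjusted p = 0.574). For Dbi 15 of 16 pairs were higher, and at least 15 were for 0.245% of genes. The microglial and vascular lists had medians of 0.04 over 7 genes and 0.05 over 10. Of 7 thalamic genes 6 had higher means, against 49.3% of all genes. The transcription factor Tcf7l2 differed by 0.87 ± 0.59, with 1.55 in dataset 1 and 0.48 and 0.58 in the others. The mean of Tcf7l2 was 0.54 ± 0.84 in column 4, 1.09 ± 0.44 in column 8 and 2.31 ± 0.61 in column 6. The part of these cells in the differences of the neuronal and myelin genes was not tested.

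The column pairs 4 and 3 and 8 and 9, at opposite ends of the grid, were also compared with each other. Each value is a difference of plain column means. Column 3 lacked E3 of dataset 1 and the left-out D3 array, whereas columns 4, 8 and 9 had arrays of all 3 rows in every dataset. For genes that vary between rows, such as Ttr, Ecrg4 and Vxn, end and row are therefore not separated here. The difference of column 4 minus column 3 was 0.81 ± 0.13 for Tspan2, and that of column 8 minus column 9 was 0.61 ± 0.17. The same pair of values was 0.67 ± 0.42 and 0.56 ± 0.28 for Gatm, -0.81 ± 0.11 and -0.78 ± 0.09 for Egr1, and 1.40 ± 0.10 and 1.15 ± 0.26 for Ttr. Other named genes had less equal values. They were 0.40 ± 0.21 and 0.84 ± 0.21 for Ecrg4, smaller at columns 4 and 3 in 3 of 3 datasets, as for 12.5% of all genes. They were -0.45 ± 0.13 and -0.78 ± 0.18 for Baiap2, -0.47 ± 0.26 and -0.72 ± 0.17 for Pde2a and -0.15 ± 0.27 and -1.44 ± 1.07 for Hpse, each less negative at columns 4 and 3 in 3 of 3 datasets, as for 12.2% of all genes. For Hpse, columns 8 and 9 gave -0.67, -0.98 and -2.66 in the 3 datasets. The last of these held the values -4.92 at C8 and 2.47 at C9. Its values at D9 and E9 of dataset 1 were missing. In the test of one column pair against the other no gene passed (limma, 605 genes at an unadjusted p under 0.05, 3.88%). With 3 datasets and unequal rows at the ends, a missed threshold does not show that both ends are equal.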

How the data were processed

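The authors deposited log2 ratios between voxel and whole brain RNA, with the direction unstated, for 20847 rows and 192 arrays. Per the labels, voxel RNA carried Cy3 in datasets 1 and 3 and Cy5 in dataset 2. The sources used here name no scanner, background correction or normalization. In the deposited values 99.9% of rows had a median within 0.001 of 0, so rows had been centred.

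Values at the floor (-6.64) were treated as missing. To centre an array, its median over the 7962 rows with values everywhere was subtracted. A row needed values on 80% of arrays in all datasets, 20 control rows were dropped, and rows of 1 symbol were averaged (2903 genes), which gave 15610 features, 8447 of them with a symbol. Features without a symbol keep the clone name of the table. Symbols came from the platform annotation, and 12982 of 13162 rows with 1 symbol matched the mouse gene table. The difference of side means per dataset was tested two-sided against 0 with limma 3.58.1 (R 4.3.3) over all features, with Benjamini-Hochberg adjustment and a threshold of 0.05. The procedure was tested on simulated data. Figures used matplotlib 3.10.9.

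The dataset is the replicate, n = 3. The labels name the dataset numbers as independent harvests, so they pair the sides, and the fit holds that block. The deviations of both sides of a dataset correlated at 0.403, 0.655 and 0.758. Arrays give no read depth, so their number limits precision.

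Named genes were the 4 markers Bcas1, Gatm, Cryab and Ppp1r1b, genes that passed or, in their place, the 12 with the smallest p in each direction, and measured members of the gene lists. The members and lists were chosen with earlier results of these data known. Alternatives covered floor values, normalization, filters, replicates, positions, rows and the unit of the fit.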

Additional observations from a re-analysis of the deposited data

Results flagged for a closer look

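The difference of the clone vc0339 between rows of the grid, row C minus row E, was -3.47 and passed the test of that contrast itself (limma adjusted p = 0.0221), with the same sign in 3 of 3 datasets. The difference stayed between -3.36 and -3.75 in the 4 alternatives that lost the call.

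The left-out dataset 2 array labelled D3 lay above all 16 arrays of columns 3 and 9 for at least 7 of the named features. Many named features were chosen for their difference between the compared columns. The share of all features with such a position, above or below, was not counted. Whether these readings are unusual for this array was therefore not tested. It read 4.64 for vc0339, 2.64 for Ttr, 1.22 for Ndrg1, 1.23 for Dbi, 0.95 for Igf2, 0.51 for Gsta4 and 1.77 for Rarres2. For Ppp1r1b the same array read 0.19, below the lowest of those 16 arrays, 1.29.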

How the results depend on the processing

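In the comparison of columns 4 and 8 with columns 3 and 9, 1 gene passed. The count was 0 with floor values kept, with no filter on missing values, with values limited to within 3 of 0, with the dataset 2 array of D3 kept, on common positions, on means of neighbouring pairs, on either side alone (columns 4 and 3 or 8 and 9) and in row C, D or E alone. It was 2 after quantile normalization, 3 on rows measured on every array, 2 with each row tested on its own and 36 with single arrays as units. Leaving out 1 dataset gave counts from 0 to 12, with 0 without dataset 2 and 12 without dataset 3. Without the replicate block, comparing dataset means as 3 against 3, 0 passed. For row C against row E (1 passed) the count was 0 with floor values kept, 0 after quantile normalization, 2 on rows measured on every array and 0 to 13 when leaving out 1 dataset. For columns 3 and 9 against 2 and 10 (0 passed) quantile normalization and rows measured on every array each gave 1. Leaving out dataset 3 gave 1 for columns 5 and 7 against 4 and 8, 139 for columns 4 and 8 against both neighbours and 133 for columns 3 and 9 against both neighbours, where leaving out 1 dataset otherwise gave 0. Among named genes 3 values turned sign: Ppp1r1b (0.38) and Ppp3ca (0.12) in row E alone and Kcng1 (0.10) in columns 8 and 9 alone. The clone vc0339 lost its call in 14 of 21 alternatives, with the direction kept. The cause was not tested. The number of datasets limits the precision of every difference.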

Other observations

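Genes of protein synthesis and energy metabolism, which every cell uses, had small differences, mostly with higher means in columns 4 and 8. Of 72 measured genes of cytosolic ribosomal proteins 71 had higher means in columns 4 and 8, and 55 were higher in 3 of 3 datasets, against 12.6% of all genes tested. Their median was 0.20, with 0.30 in row C, 0.08 in row D and 0.21 in row E, and the highest was Rps12 at 0.41 ± 0.11. Of 60 genes of oxidative phosphorylation 53 had higher means, as did 49.3% of all genes. In 3 of 3 datasets 28 were higher, against 12.6% of all genes. The median of this list was 0.13, with 0.34 in row C, 0.07 in row D and 0.01 in row E. None of these passed the test (limma). Genes of one list were measured on the same arrays, so they are not independent.

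Of 29 antioxidant and glutathione genes 25 had higher means in columns 4 and 8, against 49.3% of all genes, with a median of 0.15. Gsta4, a glutathione transferase that clears products of lipid oxidation, differed by 0.56 ± 0.11, with 15 of 16 pairs higher, and Gstm7 by 0.49 ± 0.33. Axon cytoskeleton genes had a median of 0.13 over 34 genes, and Tuba1b, an alpha tubulin, was higher in 16 of 16 pairs at 0.51 ± 0.16. Anxa5, Pla2g7 and Tppp3 were higher in 16 of 16 pairs too, by 0.52 ± 0.13, 0.48 ± 0.05 and 0.45 ± 0.27, and are named after their values were seen. Among all genes with 16 complete pairs, 0.0446% were higher in every pair and 0.245% in at least 15. The clone vc0319, which has no symbol here, differed by 1.05 ± 0.54, with 15 of 16 pairs higher.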
